A study of Mus musculus with 38 samples.

Results

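Heat shock proteins and the other chaperone families of the cell were followed in the spleens of DBA/2 mice after a single drug, cyclophosphamide, on 2-colour arrays. The members were the probes whose gene symbol, in the probe annotation, begins with Hsp, Dnaj, Cct and a digit, Fkbp, Ppi and a letter from a to h, Pdia or Bag, that name 1 gene, and that were measured in 3 or more mice of every group. Of 13443 probes on the array, 88 named 1 gene of these families, and 42 of them, for 41 genes, had enough values to be tested, beside 8319 tested probes in all. The members were 16 probes of J proteins for 15 genes, 6 FK506-binding proteins, 5 proteins of the Hsp70 and Hsp110 family, 5 subunits of the cytosolic chaperonin, 4 cyclophilins, 2 small heat shock proteins, 2 Bag proteins and 2 protein disulfide isomerases.

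The groups were 5 untreated mice, 4 mice taken 1 day, 5 mice taken 2 days and 5 mice taken 5 days after cyclophosphamide at 83 mg/kg, all of strain DBA/2 and all measured as splenocytes. Cyclophosphamide is an alkylating agent that kills dividing blood cells. Each spleen RNA, in Cy5, was hybridised against a common Cy3 sample pooled, per the labels, from bone marrow of untreated animals, although the treatment field of that sample names the drug. A value is therefore a log2 ratio of spleen over the marrow pool, and the pool and the dye cancel in a difference between 2 groups of mice but not in the ratio itself. Every mouse had 2 technical columns, which were averaged, so that n counts mice. The labels call the mice biological replicates and the design text calls them independently harvested.

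Chaperones bind unfolded proteins and help them to fold, to cross membranes or to be degraded. Hsp70 proteins work in cycles of ATP binding in which J proteins deliver the client and start ATP hydrolysis, Bag proteins release the nucleotide, and small heat shock proteins hold unfolded clients until Hsp70 takes them over. The chaperonin is a ring that folds actin and tubulin, disulfide isomerases and many FK506-binding proteins work in the endoplasmic reticulum, and cyclophilins turn peptide bonds before proline. Heat shock factor, the regulator of the stress-induced members, binds repeated GAA units in their promoters.

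Few members changed, and the share that did was close to the share among all probes in most comparisons. Hspa1a, the stress-induced Hsp70, was 2.41-fold higher at day 1 than in untreated spleens and 2.01-fold higher at day 2. At day 2 Fkbp5, a co-chaperone of Hsp90, rose as well, while Ppih, a nuclear cyclophilin of the splicing machinery, and Dnajc4, a J protein, fell. Between day 2 and day 5 Ppih, Dnajc4 and the chaperonin subunit Cct6a rose and Pdia3, a disulfide isomerase that folds glycoproteins, fell. These 6 genes are the only members that passed any of the 5 comparisons, with limma and Benjamini-Hochberg adjustment over all 8319 probes at 0.05.

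At day 1 against untreated, 1 of 42 members rose and none fell, 2.38% against 2.33% of all probes (0.938% higher, 1.39% lower). At day 2 against untreated, 2 members rose and 2 fell, 9.52% against 8.31% of all probes (3.31% higher, 5% lower). At day 5 against untreated no member passed, beside 0.0721% of all probes (0.0481% higher, 0.024% lower). At day 2 against day 1 no member passed, beside 0.0601% of all probes, which were all lower. At day 5 against day 2, 3 members rose and 1 fell, 9.52% against 5.3% of all probes (3.8% higher, 1.5% lower). An unadjusted limma p below 0.05 was reached by 7 members at day 1, 5 at day 2 and 2 at day 5 against untreated, where 13.2%, 20.9% and 5.22% of all probes reached it. It was reached by 3 members at day 2 against day 1 and by 7 at day 5 against day 2, beside 6.02% and 18.3% of all probes. In a moderated F-test over the 4 conditions, built on limma's variances, 2 members passed, Hspa1a and Pdia3. That is 4.76% of the members beside 6.01% of all probes.

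Taken over all members, the differences lay near 0. The median log2 difference of the 42 members was 0.04 at day 1, -0.01 at day 2 and 0.06 at day 5 against untreated, beside 0.02, 0.01 and 0.01 over all probes. It was -0.05 at day 2 against day 1 and 0.05 at day 5 against day 2, beside -0.02 and 0.01 over all probes. At day 1, 25 of 42 members had a difference above 0, against 54.3% of all probes, and at day 2 it was 21 of 42, against 50.9%. At day 2 against day 1, 12 of 42 members were above 0, against 45% of all probes, and at day 5 against day 2 it was 26 of 42, against 51.2%. The day 1, day 2 and day 5 comparisons share the untreated mice, and the last comparison shares the day 2 mice with others, so they are not separate evidence.

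**Figure D1:**
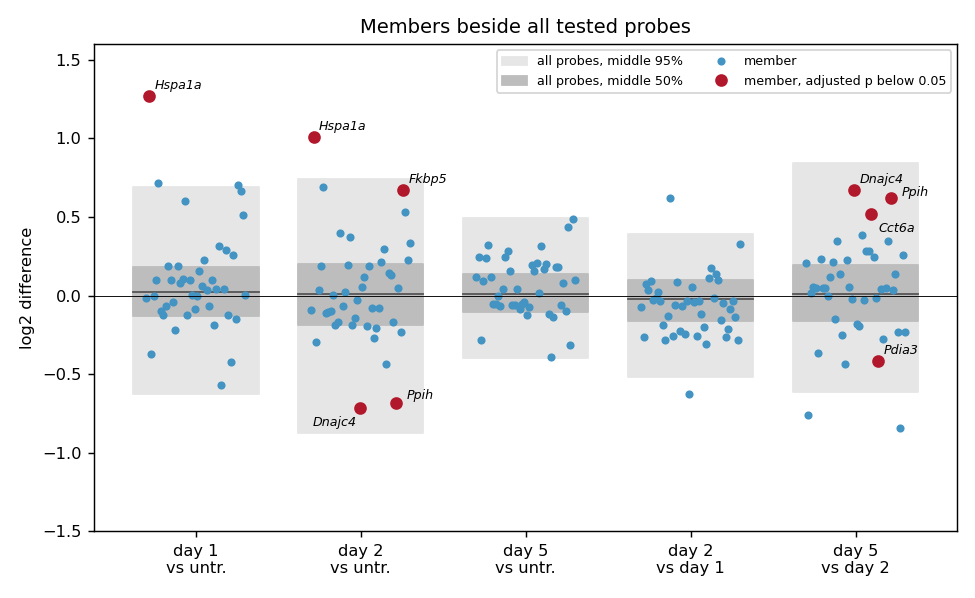
Log2 difference of each of the 42 member probes (points) in the 5 comparisons, with the middle 50% and 95% of all 8319 tested probes as grey bands and their median as a line; red points are members with an adjusted p below 0.05. Most members sit inside the bands, and Hspa1a stands highest at day 1 (1.27) and at day 2 (1.01).

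Hspa1a encodes the Hsp70 that cells make in response to heat and other stress, and it is nearly identical to its neighbour Hspa1b, so the probe may read both. Its log2 ratios were -0.29, 0.56, -0.32, -0.31 and -0.21 in untreated spleens, 0.79, 1.34, 1.09 and 1.41 at day 1, 1.00, -0.19, 1.41, 0.47 and 1.77 at day 2, and -0.51, -0.09, 0.31, 0.74 and 0.21 at day 5. All 4 day 1 mice lay above all 5 untreated mice, and at day 2 mouse 2 and mouse 4 lay within the range that untreated mouse 2, the highest control, set. The means were -0.11 ± 0.38 in untreated spleens (SD, n = 5), 1.15 ± 0.28 at day 1 (SD, n = 4), 0.89 ± 0.77 at day 2 (SD, n = 5) and 0.13 ± 0.47 at day 5 (SD, n = 5). The log2 difference against untreated was 1.27 ± 0.31 at day 1 (SE, limma adjusted p = 0.0325) and 1.01 ± 0.29 at day 2 (SE, limma adjusted p = 0.0377). At day 5 against day 2 it was -0.76, which did not pass (95% interval -1.37 to -0.14, limma adjusted p = 0.158) except without day 2 mouse 2 and with the first technical columns alone, and at day 5 against untreated it was 0.25 (95% interval -0.37 to 0.86).

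Both Hspa1a calls were lost in several fits. Leaving out untreated mouse 1, 3, 4 or 5, or day 1 mouse 2, 3 or 4, each ended the day 1 call, with differences of 1.19 to 1.29 and limma adjusted p of 0.0603 to 0.106. Leaving out untreated mouse 1, 3, 4 or 5, or day 2 mouse 1, 3 or 5, each ended the day 2 call, with differences of 0.79 to 0.98 and limma adjusted p of 0.0664 to 0.114. The day 1 call was also lost with the arrays scaled to an equal median absolute deviation (1.29, limma adjusted p = 0.0567), and without the 3 mice whose technical columns correlated below 0.7 (1.43, limma adjusted p = 0.061). With the first technical columns alone the day 1 difference was 0.99 and did not pass (limma adjusted p = 0.0689), and with the second alone it was 1.55 and passed (limma adjusted p = 0.0103). The day 2 call was also lost after quantile normalization (0.79, limma adjusted p = 0.110), with equal median absolute deviations (0.98, limma adjusted p = 0.0857), with the 2 groups fitted alone (1.01, limma adjusted p = 0.103) and without those 3 mice (1.16, limma adjusted p = 0.0619). The mouse number as a block ended it as well (1.01, limma adjusted p = 0.0553). Day 2 mouse 2, the lowest of its group, has a value in only 1 of its 2 technical columns.

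The promoter of Hspa1a holds a pair of the GAA units that heat shock factor binds. RefSeq promoter windows (build GRCm38.p6), of 250 bases before and 50 bases from the start of the gene, were matched by gene ID to 36 of the 41 member genes. A 2-unit element, GAANNTTC or TTCNNGAA, both of which read the same on either strand, lay in the windows of 10 of the 36 genes, 27.8%, against 17% of all 27025 genes with a window. The 10 were Hspa1a, Ppih, Cct6a, Bag3, Cct2, Cct5, Dnaja4, Dnajb4, Fkbp7 and Hspb1, of which Hspa1a rose at days 1 and 2, Ppih fell at day 2 and Cct6a rose at day 5 against day 2. The windows of Hspa1a (chr17:34972107-34972406, minus strand), Ppih (chr4:119320474-119320773, minus strand) and Cct6a (chr5:129787106-129787405, plus strand) are shown 5′ to 3′ because these are the members that passed and hold the element, which is in capitals. It starts at position -104 in Hspa1a, at -201 in Ppih and at 25 in Cct6a, counted from the first base of the gene.
Hspa1a: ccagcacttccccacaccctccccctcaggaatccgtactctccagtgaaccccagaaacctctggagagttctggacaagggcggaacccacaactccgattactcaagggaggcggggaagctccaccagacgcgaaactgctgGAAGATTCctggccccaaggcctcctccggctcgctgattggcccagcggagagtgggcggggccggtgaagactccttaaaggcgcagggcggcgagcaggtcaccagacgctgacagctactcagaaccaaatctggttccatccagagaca
Ppih: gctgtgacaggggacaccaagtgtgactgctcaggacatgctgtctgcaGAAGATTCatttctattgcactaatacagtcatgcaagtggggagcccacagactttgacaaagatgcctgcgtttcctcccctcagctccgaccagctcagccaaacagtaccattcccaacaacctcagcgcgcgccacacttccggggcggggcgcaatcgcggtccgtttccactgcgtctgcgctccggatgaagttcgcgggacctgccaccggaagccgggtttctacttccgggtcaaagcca
Cct6a: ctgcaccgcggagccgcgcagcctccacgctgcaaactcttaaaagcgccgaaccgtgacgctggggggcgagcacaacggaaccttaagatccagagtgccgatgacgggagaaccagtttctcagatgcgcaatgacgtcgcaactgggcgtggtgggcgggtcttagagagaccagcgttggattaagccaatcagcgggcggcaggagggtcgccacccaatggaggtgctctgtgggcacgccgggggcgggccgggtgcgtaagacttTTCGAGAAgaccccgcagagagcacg
Hspa1a and Ppih carry the same 8 letters, and whether the element bears on the change of either gene was not tested. A 3-unit element, the first 2-unit form followed by 2 bases and GAA, searched on both strands, was in none of the 36 genes, against 0.662% of all genes. The letters CCAAT were in 17 of 36 genes, 47.2% against 41.1% of all genes, and the endoplasmic reticulum stress element, CCAAT and CCACG with 9 bases between them, was in none, against 0.137% of all genes. The letters TATAAA were in 3 of 36, 8.33% against 15.7% of all genes, those of Dnajc19, Dnajc24 and Ppia. A match describes the letters of this window only.

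The other Hsp70 proteins did not pass in any comparison. Hspa1l, a close relative of Hspa1a that is abundant in testis, ranged from -0.44 to -0.13 at day 1 and from -0.53 to 0.57 in 4 untreated mice, a difference of -0.37 (95% interval -0.81 to 0.07). Hspa9, the Hsp70 of mitochondria, differed by 0.10 at day 1 and 0.19 at day 2 (95% interval -0.32 to 0.69), and untreated mouse 2, at -1.04, was its lowest value. Hspa14, an Hsp70 found at ribosomes, differed by -0.02 at day 1 (95% interval -0.42 to 0.38). Hspa4l, a protein of the Hsp110 kind, had a 95% interval of -0.36 to 0.36 at day 1. Whether Hspa1a changed more than these relatives was not tested.

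The small heat shock proteins hold unfolded clients and do not use ATP. Hspb1 had the widest spread within groups of all members, with a residual SD of 0.683 against a median of 0.288 over the members and 0.266 over all probes. The mice had log2 ratios of 0.82, 0.24, 0.22, 0.22 and 0.26 in untreated spleens, 0.78, 1.91, 0.28 and 1.31 at day 1, 0.52, 1.15, 0.02, 0.80 and 2.72 at day 2, and 1.08, 0.65, 0.09, 1.29 and 0.25 at day 5. Every group reached below 0.82, the highest untreated value, and mouse 5 of day 2 was highest of all. The differences of 0.72 at day 1 and 0.69 at day 2 did not pass (limma adjusted p = 0.474 and 0.315). Hspb2, a small heat shock protein of muscle, differed by -0.10 at day 1 and by -0.11 at day 2 (95% interval -0.46 to 0.23).

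Among the J proteins only Dnajc4 passed. J proteins bring clients to Hsp70, and Dnajc4 is one of the less studied. In single mice it stood at -0.07, -0.14, 0.14, 0.13 and -0.02 in untreated spleens, -0.11, 0.12, -0.20 and -0.14 at day 1, -0.34, -1.62, -0.20, -0.79 and -0.58 at day 2, and 0.04, -0.03, -0.09, 0.30 and -0.39 at day 5. The highest day 2 mouse, at -0.20, was lower than every untreated and every day 1 mouse, and day 2 mouse 2 stood far below the rest of its group. Against untreated, Dnajc4 fell by 0.71 ± 0.20 on the log2 scale at day 2 (SE, 1.64-fold, limma adjusted p = 0.0267). It rose by 0.67 ± 0.20 at day 5 against day 2 (SE, 1.59-fold, limma adjusted p = 0.0498). The difference of -0.63 at day 2 against day 1 did not pass (limma adjusted p = 0.58).

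The value of day 2 mouse 2 for Dnajc4 is the mean of -2.54 and -0.69 in its technical columns, and without that mouse the day 2 difference was -0.49 (limma adjusted p = 0.0477) and the day 5 against day 2 difference was 0.44 (limma adjusted p = 0.0962). Leaving out untreated mouse 3 or 4 or day 2 mouse 4 ended the day 2 call, with differences of -0.69 to -0.68 and limma adjusted p up to 0.0607. The day 5 call held in only 3 of 19 such fits, those without day 2 mouse 1, day 2 mouse 3 or day 5 mouse 5, and reached a limma adjusted p of 0.124 in the others. Other settings also ended these calls, the day 2 call after quantile normalization or scaling to equal median absolute deviations, with the first technical columns alone, with the 2 groups fitted alone and without the 3 mice of low technical correlation (differences of -0.87 to -0.60, limma adjusted p of 0.0511 to 0.0983). The day 5 call was lost in the same settings, with the mouse number as a block, when probes with 2 mice a group were let in, and when values whose technical columns lay over 1 apart were left out (differences of 0.44 to 0.77, limma adjusted p of 0.0526 to 0.162).

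No J protein other than Dnajc4 passed. Of all 16 J protein probes, 9 had a difference above 0 at day 1, 7 at day 2 and 5 at day 5 against untreated, with medians of 0.04, -0.05 and -0.05, where 54.3%, 50.9% and 52.8% of all probes were above 0. At day 2 against day 1 it was 4 of 16, with a median of -0.06, where 45% of all probes were above 0, and at day 5 against day 2 it was 9 of 16, with a median of 0.05, where 51.2% were. Dnajc15, a J protein of the inner mitochondrial membrane that curbs the respiratory chain, ranged from 0.51 to 1.08 at day 1 and from -0.48 to 0.65 in untreated spleens, and its difference of 0.60 did not pass (95% interval 0.06 to 1.14, limma adjusted p = 0.297). Dnajc14, a J protein of the endoplasmic reticulum membrane, differed by -0.25 at day 5 against day 2 (95% interval -0.53 to 0.03). Dnajb4, a cytosolic partner of Hsp70, had 2 probes that went different ways. At day 2 against day 1 the first probe differed by 0.62, with its 4 day 2 mice above its 4 day 1 mice, and the other by -0.25, and neither passed (limma adjusted p = 0.58 and 0.968). Dnajb1, the best known partner of Hspa1a in the heat shock response, differed by 0.10 at day 1 (95% interval -0.30 to 0.50).

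Bag1 and Bag3 release the nucleotide from Hsp70, and Bag3 also leads clients to autophagy and is itself stress-induced. Bag3 ranged from -0.07 to 0.51 at day 1 and from -0.59 to 0.14 in untreated spleens, a difference of 0.22 (95% interval -0.09 to 0.54). The lowest untreated value, in mouse 2, is the mean of technical columns that lay 1.08 apart. Bag1 differed by 0.39 at day 5 against day 2 (95% interval 0.00 to 0.77, limma adjusted p = 0.269). The mice of the groups overlapped in each of these comparisons.

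Cct6a, a subunit of the chaperonin ring, rose at day 5 against day 2. Its log2 ratios were 0.11, 0.11, 0.26, 0.17 and -0.17 in untreated spleens, 0.30, 0.25, 0.12 and 0.12 at day 1, -0.58, -0.15, 0.12, -0.08 and 0.14 at day 2, and 0.44, 0.28, 0.30, 0.67 and 0.36 at day 5. All 5 day 5 mice lay above all 5 day 2 mice and above all 5 untreated mice. Cct6a averaged 0.41 ± 0.16 at day 5 and -0.11 ± 0.29 at day 2 (SD, n = 5 each), a rise of 0.52 ± 0.13 (SE, 1.43-fold, limma adjusted p = 0.0272). Against untreated the day 5 difference of 0.31 did not pass (95% interval 0.03 to 0.59, limma adjusted p = 0.923). The day 5 call was lost without day 2 mouse 1 or 2 or without day 5 mouse 1 or 4, with differences of 0.40 to 0.51 and limma adjusted p of 0.0502 to 0.0722. It was also lost after quantile normalization, with the first technical columns alone, with the 2 groups fitted alone and without the 3 mice of low technical correlation. The mouse number as a block ended it too. In these settings the differences were 0.48 to 0.53 and the limma adjusted p 0.053 to 0.190.

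None of the other 4 tested chaperonin subunits passed. At day 5 against day 2, 4 of the 5 subunits had a difference above 0, beside 51.2% of all probes, with a median of 0.28 beside 0.01 over all probes. Cct2 differed by 0.29 (95% interval -0.05 to 0.62), Cct5 by 0.28 (95% interval -0.07 to 0.64) and Cct7 by 0.25 (95% interval -0.17 to 0.66), while Cct8 differed by -0.02 (95% interval -0.46 to 0.42). At day 5 against untreated all 5 differences were above 0, with a median of 0.20 and a range of 0.02 to 0.31, where 52.8% of all probes were above 0. The subunits were read in the same mice, so these differences are not separate evidence. Day 5 mouse 4 was highest of its group for Cct2 (0.89), Cct5 (0.62), Cct6a (0.67) and Cct7 (0.69), but not for Cct8 (0.32). Its median log2 ratio over the members, 0.24, was the highest of any mouse. The other day 5 values of Cct5 were 0.40, 0.10, -0.24 and 0.01, beside an untreated mean of 0.16. Cct3, a further subunit, was measured in 12 mice but in only 2 untreated ones, and so was not tested. Its median was 0.91 in 3 day 5 mice (0.16 to 0.91) and 0.18 in 4 day 2 mice (-0.30 to 0.49). It was -0.05 in 3 day 1 mice and 0.05 in 2 untreated mice. Another Cct3 probe had a value in 1 day 2 mouse (0.30) and 1 day 5 mouse (0.72) only.

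Pdia3 forms and breaks disulfide bonds in glycoproteins and helps to load peptides on MHC class I molecules. It had the smallest residual SD of the members, 0.142, and its technical columns differed by a median of 0.047. Single mice gave log2 ratios of 0.61, 0.21, 0.43, 0.46 and 0.45 in untreated spleens, 0.61, 0.69, 0.87 and 0.81 at day 1, 0.87, 0.61, 0.64, 0.68 and 0.85 at day 2, and 0.50, 0.32, 0.17, 0.47 and 0.10 at day 5. The day 1 and day 2 mice lay above the untreated mice, with untreated mouse 1 just below them, and all 5 day 5 mice lay below all 5 day 2 mice. Pdia3 averaged 0.31 ± 0.18 at day 5 and 0.73 ± 0.12 at day 2 (SD, n = 5 each), and it fell by 0.42 ± 0.11 on the log2 scale (SE, 1.33-fold, limma adjusted p = 0.0372). Differences of 0.31 at day 1 and 0.30 at day 2 against untreated did not pass (limma adjusted p = 0.218 and 0.128).

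The Pdia3 call was lost without day 2 mouse 1, 3 or 5 or without day 5 mouse 2, 3 or 5, with differences of -0.44 to -0.36 and limma adjusted p of 0.0518 to 0.1. After quantile normalization the Pdia3 difference was -0.29 (limma adjusted p = 0.323), as it was with equal median absolute deviations (limma adjusted p = 0.321). The call was also lost with the second technical columns alone, with a variance trend in limma, with the 2 groups fitted alone, with the mouse number as a block and without the 3 mice of low technical correlation (limma adjusted p of 0.0501 to 0.096). Pdia4, another disulfide isomerase of the endoplasmic reticulum, had differences of the opposite sign to those of Pdia3 at days 1 and 2, and neither passed. Its log2 ratios were 0.19, -0.07, 0.21, -0.10 and 0.18 in untreated spleens, -1.31, 0.02, -0.36 and -0.31 at day 1, and -0.43, -0.31, -0.15, -0.52 and -0.35 at day 2. Each day 2 mouse was lower than every untreated mouse, and day 1 mouse 1 was the lowest of these. The differences were -0.57 at day 1 and -0.43 at day 2 (limma adjusted p = 0.293 and 0.299).

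Ppih, a cyclophilin bound to a particle of the spliceosome, fell at day 2. The log2 ratios of single mice were 0.29, -0.22, -0.03, 0.57 and 0.19 in untreated spleens, -0.27, -0.46, -0.26 and -0.07 at day 1, -0.40, -0.60, -0.17 and -0.93 in the 4 day 2 mice with a value, and -0.29, 0.36, 0.10, 0.08 and 0.23 at day 5. Day 2 mouse 4, at -0.17, was above untreated mouse 2, and day 5 mouse 1 was below it, so both comparisons overlapped in 1 mouse on each side. Ppih averaged -0.52 ± 0.33 at day 2 (SD, n = 4) and 0.16 ± 0.30 in untreated spleens (SD, n = 5), and fell by 0.68 ± 0.18 on the log2 scale (SE, 1.61-fold, limma adjusted p = 0.020). At day 5 against day 2 it rose by 0.62 ± 0.18 (SE, 1.54-fold, limma adjusted p = 0.047). At day 1 the difference of -0.42 did not pass (limma adjusted p = 0.283).

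The highest untreated value of Ppih, in mouse 4, is the mean of 1.21 and -0.07 in its technical columns. Leaving out untreated mouse 1 or 4 or day 2 mouse 5 ended the day 2 call, with differences of -0.65 to -0.55 and limma adjusted p of 0.0508 to 0.0886. With the second technical columns alone the day 2 difference was -0.42 (limma adjusted p = 0.143). The day 2 call was also lost after quantile normalization, with equal median absolute deviations and with the 2 groups fitted alone (differences of -0.68 to -0.58, limma adjusted p of 0.0679 to 0.0729). The day 5 call held in only 4 of 19 fits that left out a mouse, those without untreated mouse 2, untreated mouse 4, day 2 mouse 4 or day 5 mouse 1, and reached a limma adjusted p of 0.157 in the others. It was lost as well in those settings, with either technical column alone, with the mouse number as a block, when probes with 2 mice a group were let in and without the 3 mice of low technical correlation (differences of 0.49 to 0.73, limma adjusted p of 0.0573 to 0.189).

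The other cyclophilins did not pass. Ppia, the abundant cytosolic cyclophilin that cyclosporin binds, was below 0 in all 5 untreated mice, from -0.73 to -0.05, and differed by 0.14 at day 2 (95% interval -0.20 to 0.49) and -0.13 at day 5 (95% interval -0.48 to 0.21). Ppif, the mitochondrial cyclophilin of the permeability transition pore, differed by 0.35 at day 5 against day 2 (95% interval -0.12 to 0.81). Ppie, a nuclear cyclophilin of the spliceosome like Ppih, differed by 0.29 at day 1 and 0.13 at day 2 against untreated (95% interval at day 2 -0.28 to 0.54). Ppie and Ppih thus had day 2 differences of opposite sign, and a difference between them was not tested.

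Fkbp5 slows the steroid receptors held by Hsp90 and is a well known target gene of glucocorticoids. Its log2 ratios were -0.36, -1.22, -0.78, -0.57 and -0.52 in untreated spleens, -0.19, -0.16, 0.23 and 0.18 at day 1, -0.60, -0.07, -0.06, 0.27 and 0.36 at day 2, and -0.32, -0.50, -0.45, 0.19 and -0.18 at day 5. All 4 day 1 mice lay above all 5 untreated mice, while day 2 mouse 1, at -0.60, lay within the untreated range. At day 2 Fkbp5 averaged -0.02 ± 0.38, and -0.69 ± 0.33 in untreated spleens (SD, n = 5 each), a rise of 0.67 ± 0.19 (SE, 1.59-fold, limma adjusted p = 0.0309). The day 1 difference of 0.70 was as large and did not pass (95% interval 0.29 to 1.12, limma adjusted p = 0.0677) except without day 2 mouse 1 and in 4 other settings, nor did the day 5 difference of 0.44 (95% interval 0.04 to 0.83, limma adjusted p = 0.923). The glucocorticoid response element, AGAACA and TGTTCT with 3 bases between them, was in the promoter windows of none of the 36 genes, against 0.0111% of all genes. A shorter form, GNACA and TGTNC with 3 bases between them, was in 1 of the 36 genes, Fkbp7, 2.78% against 0.537% of all genes. Neither search says anything of elements outside the window.

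Untreated mouse 2, the lowest for Fkbp5, is the mean of -2.01 and -0.42 in its technical columns, and without it the day 2 difference was 0.54 (limma adjusted p = 0.0884). Leaving out untreated mouse 3 or day 2 mouse 3, 4 or 5 also ended the call, with differences up to 0.68 and limma adjusted p of 0.051 to 0.0932. Without the 3 mice whose technical columns correlated below 0.7 the difference was 0.53 (limma adjusted p = 0.191). The call was also lost with either technical column alone, with the 2 groups fitted alone and when values whose technical columns lay over 1 apart were left out (differences of 0.54 to 0.79, limma adjusted p of 0.0617 to 0.0859).

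Outside the 6 members that passed, Fkbp7 had the largest difference. Fkbp7 and Fkbp9 act in the endoplasmic reticulum. The log2 ratios of Fkbp7 ranged from 0.13 to 0.79 in untreated spleens and from 0.71 to 1.86 at day 1, were 1.01, 0.37, 1.67, 0.58 and 1.54 at day 2, and were 0.31, 0.09, -0.15, 0.90 and -0.20 at day 5. The day 5 against day 2 difference was -0.84 (95% interval -1.39 to -0.30, limma adjusted p = 0.0649), with mouse 4 of day 5 among the day 2 mice, and it passed without day 2 mouse 2 or 4, without day 5 mouse 4, and when probes without a value in every mouse were left out. Fkbp9 had 2 mice far from their groups, untreated mouse 3 at -1.65 and day 2 mouse 1 at -2.03, and a day 1 difference of 0.51 (95% interval -0.32 to 1.35). Fkbp1b, which steadies calcium release channels, differed by -0.23 at day 2 (95% interval -0.54 to 0.07), and Fkbp1a, the target of FK506 and rapamycin, by 0.26 at day 1 (95% interval -0.20 to 0.72).

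**Figure D2:**
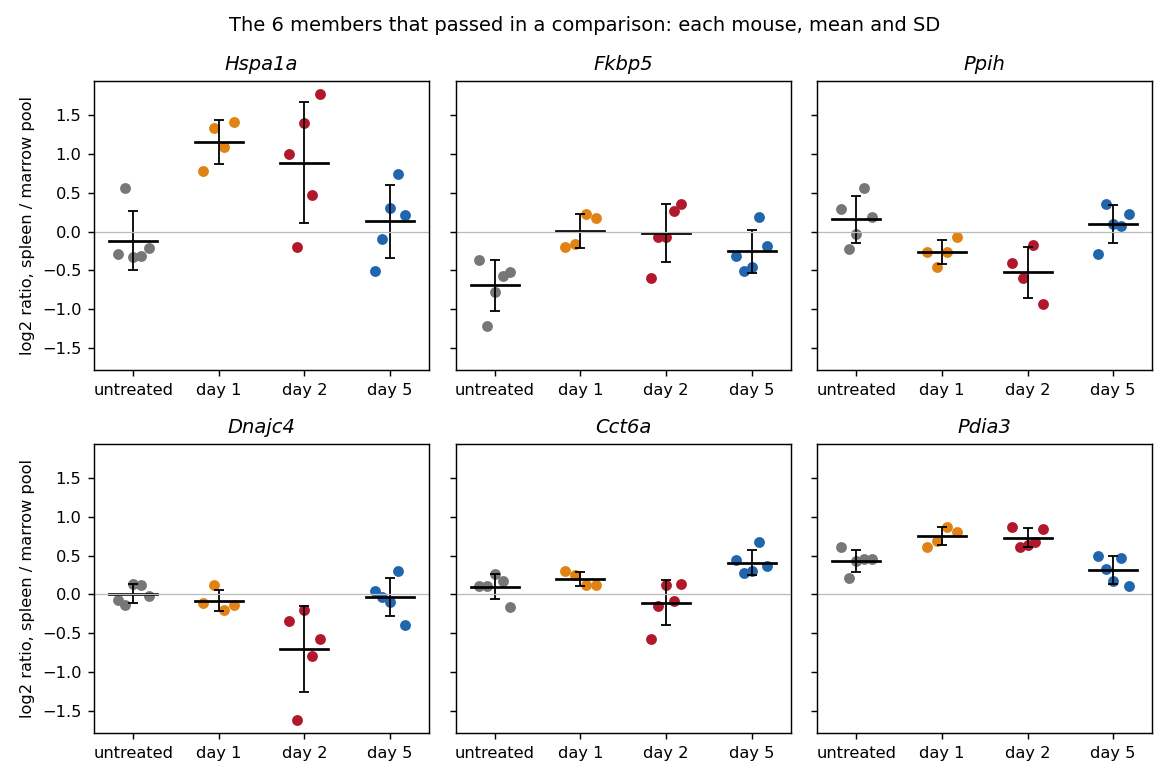
Log2 ratio of spleen over the marrow pool for the 6 members that passed in any comparison, by group; points are mice, the long bar is the mean and the whiskers are the SD. Hspa1a at day 1 (0.79 to 1.41) lies above the untreated mice, Dnajc4 at day 2 (-1.62 to -0.20) lies below them, and Pdia3 at day 5 (0.10 to 0.50) lies below day 2.

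**Figure D3:**
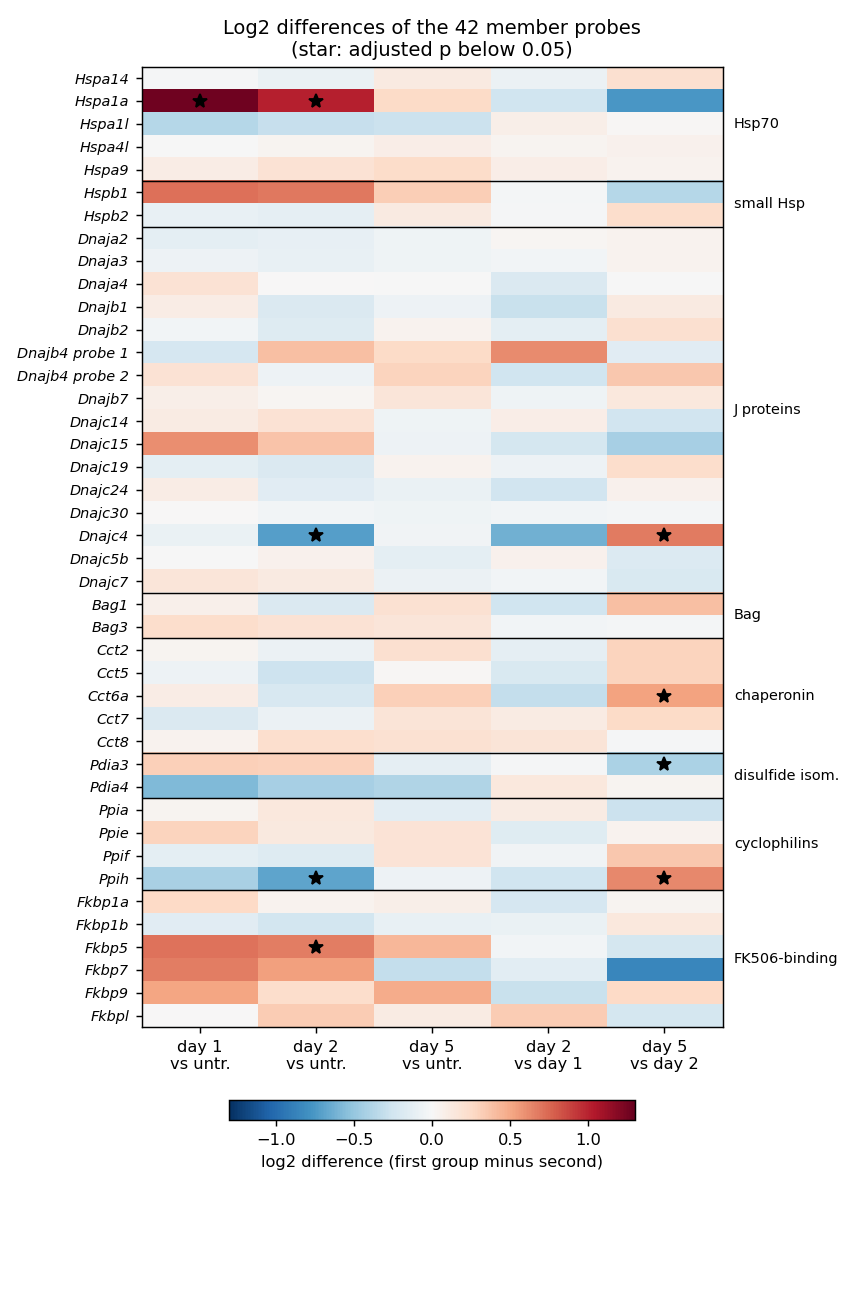
Log2 difference (colour) of the 42 member probes, by family, in the 5 comparisons; a star marks an adjusted p below 0.05. Stars stand on Hspa1a in 2 columns, on Dnajc4 and Ppih in 2 each, and on Fkbp5, Cct6a and Pdia3 in 1 each, and the 5 chaperonin subunits are all above 0 at day 5 against untreated, with no star. Day 5 mouse 4 was the highest of its group for Cct2, Cct5, Cct6a and Cct7.

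Members whose groups did not overlap were about as frequent as such probes on the whole array. At day 1, 3 members lay wholly above the untreated mice (Hspa1a, Fkbp5 and Pdia3), 7.14% against 8.32% of all probes separated in either direction. At day 2, Pdia3 lay above and Dnajc4 and Pdia4 lay below, 7.14% against 8.84% of all probes. At day 5 only Cct6a lay above the untreated mice, 2.38% against 1.59% of all probes. Day 2 and day 1 were separated for the first Dnajb4 probe and Dnajc4, 4.76% against 3.39% of all probes, and day 5 and day 2 for Cct6a and Pdia3, 4.76% against 7.37% of all probes.

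**Figure D4:**
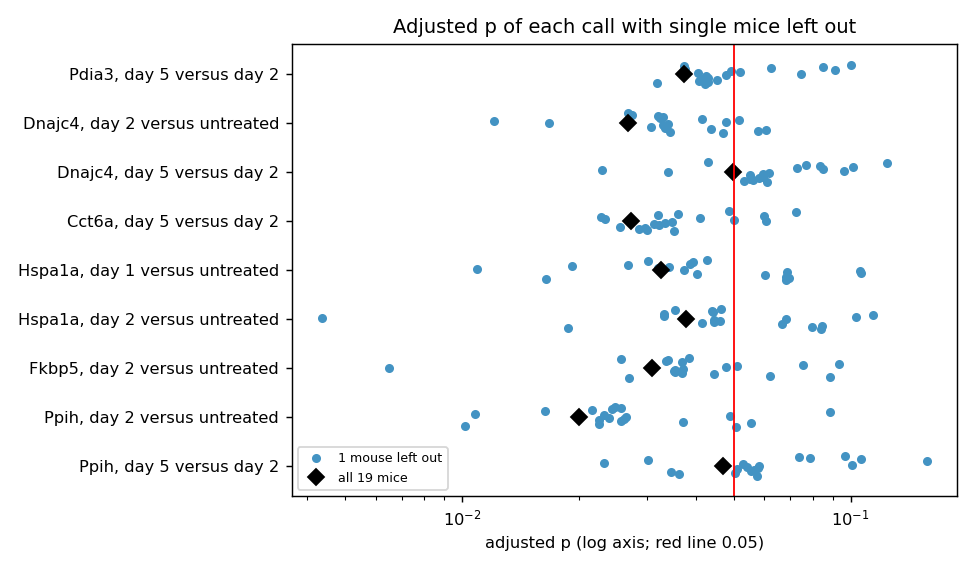
Limma adjusted p (log axis) of each of the 9 calls with all 19 mice (diamonds) and with each mouse left out in turn (points); the red line is 0.05. Every call crosses the line in at least 3 of 19 fits, and the day 5 against day 2 calls of Dnajc4 and Ppih stay below it in only 3 and 4.

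In untreated spleens the members lay on both sides of the marrow pool. The mean log2 ratio was above 0 for 19 of 42 members, 45.2% against 44.6% of all probes. Fkbp7 (0.50 ± 0.28), Pdia3 (0.43 ± 0.14) and Fkbp1a (0.42 ± 0.38) had the highest ratios, and Fkbp5 (-0.69 ± 0.33), Ppia (-0.46 ± 0.28) and Fkbp9 (-0.37 ± 0.74) the lowest (SD, n = 5). These ratios compare spleen with marrow through 1 dye orientation, so that a dye effect of a probe cannot be told apart from a difference between the tissues.

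Many chaperone probes could not be followed. Of 88 probes, 46 were not tested, and the share tested, 47.7%, was below the 61.9% of all probes. They include Hsp90aa1 and Hsp90b1 of the Hsp90 family, Hspa8 and Hspa5, the constitutive Hsp70 of the cytosol and that of the endoplasmic reticulum, Hsph1, Hspe1, Dnaja1 and Ppib. No value was given in any mouse for 12 of the 46. Hsp90b1, the Hsp90 of the endoplasmic reticulum, was measured in 5 day 5 mice, from 0.63 to 1.79, but in only 2 untreated mice, at 0.12 and 2.29. Probes that name several genes, 3 of them for these families, were left out, among them those for Hspa1a and Hspa1b together. Their values are not given, so they offer no second reading of the Hspa1a rise here.

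Few genes that work with these families passed. None of 4 tested heat shock factors and regulators passed, with medians of 0.09 at day 1 and 0.06 at day 2, and Hsf1 was not among them. None of 12 probes for 11 helpers of Hsp90 and Hsp70 passed. The smallest F-test p among them belonged to Tomm34 and Sgta, both adaptors of Hsp70 and Hsp90, and Sgta differed by 0.37 at day 2 (95% interval 0.05 to 0.70, limma adjusted p = 0.163). None of 20 probes for 19 genes of endoplasmic reticulum folding and the unfolded protein response passed. Atf4, a transcription factor of that response, differed by -0.52 at day 1 (limma adjusted p = 0.0632), and Sdf2 by -0.59 at day 5 against day 2 (limma adjusted p = 0.214). None of 6 probes of mitochondrial folding and proteolysis passed, with Grpel1, the exchange factor of Hspa9, at -0.33 and Lonp1, a protease, at 0.08 at day 1.

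Of 6 partners of the chaperonin, Pfdn1 was the 1 that passed. Pfdn1 is a subunit of prefoldin, which hands unfolded actin and tubulin to the chaperonin. Log2 ratios in single mice were 0.11, -0.17, -0.33, -0.49 and -0.15 in untreated spleens, -1.34, -1.28, -0.79 and -0.37 at day 1, from -2.12 to -1.14 at day 2 and 0.29, -0.43, -0.35, -0.65 and -0.31 at day 5. Each of the 5 day 2 mice was lower than every untreated and every day 5 mouse. Against untreated Pfdn1 fell by 1.61 ± 0.21 on the log2 scale at day 2 (SE, 3.05-fold, limma adjusted p = 4.5e-05), and it rose by 1.52 ± 0.21 at day 5 against day 2 (SE, limma adjusted p = 0.000122). At day 1 the difference of -0.74 did not pass (limma adjusted p = 0.0945). Tbcb, a tubulin folding factor, differed by 0.49 at day 1 and by 0.45 at day 2 (limma adjusted p = 0.136 and 0.103).

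Markers of red cell precursors and macrophages also passed in some comparisons. In a bulk spleen sample, fewer cells of a type and less RNA in each of them cannot be told apart. Of 11 probes for 9 red cell precursor genes, 4 fell at day 1 and 7 fell at day 2 against untreated, and 6 rose at day 5 against day 2. Of all probes, 1.39%, 5% and 3.8% did so. The median of these probes ranged from -0.20 to 0.01 over untreated mice, from -1.23 to -0.46 over day 1 mice, from -1.60 to -0.50 over day 2 mice and from -0.48 to 0.16 over day 5 mice. Dnajc4, Ppih and Pfdn1 fell at day 2 and rose at day 5 against day 2, and Cct6a rose at day 5 against day 2. Of 6 macrophage markers 1 rose at day 1 and 3 rose at day 2, where 0.938% and 3.31% of all probes rose. Siglec1 rose by 1.24 at day 2 (limma adjusted p = 2.22e-05). The median of the 6 markers ranged from 0.14 to 0.59 over untreated mice, 0.82 to 1.34 at day 1, 0.80 to 1.93 at day 2 and 0.48 to 1.43 at day 5. Siglec1 was the marker that rose at day 1 (0.77, limma adjusted p = 0.0124), and it fell at day 5 against day 2 (-0.99, limma adjusted p = 0.000427). Hspa1a rose at days 1 and 2, Fkbp5 rose at day 2, and Pdia3 fell at day 5 against day 2. The day 1, day 2 and day 5 against day 2 comparisons held nearly all calls on the array, at 2.33%, 8.31% and 5.3% of all probes. That the 9 member calls share these comparisons with the markers therefore says nothing of a link between them. The part of these cells in the results was not tested.

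Some markers of other cell types passed as well. Col14a1 was the 1 of 10 stroma and endothelium markers that rose at day 1 and at day 2, and it fell at day 5 against day 2. Of all probes, 0.938%, 3.31% and 1.5% did so. Of 6 mature B cell markers, Cd22 and Ms4a1 fell at day 5 against day 2 (-0.96 and -0.66), and of 4 neutrophil markers Ltf rose (1.48). In that comparison 1.5% of all probes fell and 3.8% rose. None of 3 T cell and 6 plasma cell markers passed in any comparison. Their part in the results was not tested either. Neutrophil markers lay far below the marrow pool in every group, with medians of -2.89 to -1.92 over untreated mice.

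The technical columns of a mouse agreed less well in some mice. Over the members their correlation was lowest in day 2 mouse 2 (0.25), and over all probes it was below 0.7 in 3 mice, 2 of them untreated (0.581 in mouse 4, 0.651 in mouse 2) and mouse 5 of day 5 (0.673). Of 758 member values, 14 came from columns more than 1 log2 unit apart, 1.85% against 1.49% of all probes. With those 14 left out, a choice made after the data were seen, 1 member passed at day 1, 3 at day 2 and 3 at day 5 against day 2. Day 2 mouse 3 had values in both technical columns for only 23 of the 42 members. In all 19 mice, 23 members had a value in at least 1 column.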

How the data were processed

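The deposited values were log ratios of spleen RNA in Cy5 over the common marrow RNA in Cy3, made by the authors on 2-colour arrays and read here as log2 ratios, since the base is not stated. Per the labels' protocols, RNA was extracted with a Qiagen RNeasy kit and amplified as amino allyl RNA with an Ambion kit. For the scanner, spot filter, background correction and normalization, nothing is stated: not given in the sources used here. The deposited columns had medians of -0.0212 to 0.0132, 63.2% of values were present, and 7 values lay at a bound of 6 in size, none of them in a member. Signal over background is unknown, and precision rests on how many mice there are.

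Both technical columns of each mouse were averaged where present. Probes were named through the array's annotation (10032 with 1 gene, 170 with several, 3241 with none). A linear model with 4 groups and 19 mice was fitted (limma 3.58.1 under R 4.3.3), two-sided, with Benjamini-Hochberg adjustment over 8319 probes, and the script was tested on simulated data. Intervals are at 95%. The members, the gene and marker lists and the rules were chosen with earlier results of these data known. Genes named were those past 0.05, the 3 further genes of each family with the smallest F-test p and, from each list, those past 0.05 or otherwise the 2 with the smallest F-test p, and Dnajb1, Fkbp1a, Hspa4l, Cct8, Cct3 and the untested genes were added after their values were seen. Scaling, filters, technical columns, single mice, the mouse number as a block and other settings were tried as alternatives.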

Additional observations from a re-analysis of the deposited data

Results flagged for a closer look

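In 7 of 105 group values of the named members, 1 mouse stood apart from the others of its group by Dixon's test at 95%, which chance alone flags in about 1 of 20 groups. Untreated mouse 2 was apart for 3 members. It was high for Hspa1a (0.56, the others -0.32 to -0.21), low for Bag3 (-0.59, the others 0.02 to 0.14) and low for the second Dnajb4 probe (-1.37, the others -0.12 to 0.32). Untreated mouse 1 was high for Hspb1 (0.82, the others 0.22 to 0.26), and untreated mouse 4 was low for Hspb2 (-0.45, the others 0.03 to 0.16). Fkbp9 was low in untreated mouse 3 (-1.65, the others -0.21 to 0.24) and in day 2 mouse 1 (-2.03, the others 0.21 to 0.42).

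The effects against untreated at day 5 and at day 2 differed, by limma's test of day 5 against day 2, for 4 members. The difference between the effects was -0.42 for Pdia3, 0.67 for Dnajc4, 0.52 for Cct6a and 0.62 for Ppih on the log2 scale.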

How the results depend on the processing

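The counts of members passed at day 1, at day 2 and at day 5 against day 2 (1, 4 and 4) were small and moved with most settings, while no member passed at day 5 against untreated or at day 2 against day 1 under any alternative run. Quantile normalization gave 2, 1 and 0 members, and columns scaled to an equal median absolute deviation gave 1, 1 and 1, of which the first was Fkbp5 in place of Hspa1a. The first technical columns alone gave 0, 2 and 2, and the second alone 1, 2 and 2. Probes with a value in all mice gave 2, 3 and 4, and no filter beyond 2 mice a group gave 1, 4 and 2. The groups compared alone gave 1, 0 and 0. Without 3 mice of low technical correlation (below 0.7) the counts were 0, 1 and 0, and at a threshold of 0.01 they were 0, 0 and 0. With 1 mouse left out they ranged from 0 to 2, from 1 to 4 and from 1 to 4. With mouse number as a replicate block the counts were 2, 3 and 0, and Hspa1a at day 2 was among the calls not made (1.01, limma adjusted p = 0.0553). Same-numbered mice showed little likeness across the tested probes. Over 27 such pairs the deviations had a mean correlation of -0.00472 (-0.249 to 0.325), and 4 of 19 mice correlated best with their own number. Whether the numbers mark a pairing or a batch that touched only some probes was not tested. Of 4390 values of the named members under the alternatives, 4223 were counted as unchanged in call, 125 lost a call and 11 gained one. The 4223 may include small changes of sign. A further 31, past the threshold in neither the main fit nor the alternative, turned over in sign. None that had passed turned over. The causes of these changes were not tested. With 4 or 5 mice a group the median SE of a difference was about 0.18 to 0.19 for the members. Among these the smallest difference that passed was -0.42 (Pdia3), while one of -0.84 (Fkbp7), both at day 5 against day 2, did not pass.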
